A study of Sus scrofa with 15 samples.

Results

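Translation initiation and elongation factors were followed in pig granulosa cells over 7 days of culture, a course the study calls dedifferentiation. They were taken as the genes whose single symbol in the array annotation begins with EIF1 to EIF6, EEF1, EEF2 or PABPC followed by a number, or is ETF1, GSPT1 or GSPT2. With the probe set of the highest mean kept for each gene, 44 genes out of the 6765 genes with a single symbol met this rule. The samples were granulosa cells of ovarian follicles on day 0, dedifferentiating cells after 1, 2 and 4 days in culture, and cells on day 7, which the labels call DFOG and describe as grown to semiconfluence. Each day had 3 arrays, labelled as biological replicates, so 15 arrays of a single colour were hybridised on the Affymetrix porcine genome array. No treatment, strain, age or animal is given, and no label says which arrays share a pool of follicles, so the p-values here rest on the spread among these 3 arrays a day, which may in part be technical.

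Translation of an mRNA starts when EIF4E binds its 5′ cap and, with the scaffold EIF4G and the helicase EIF4A, prepares it for the small ribosomal subunit, which carries EIF3, EIF1 and the initiator tRNA held by EIF2. EIF2 has to be recharged with GTP by EIF2B after each round, and kinases that phosphorylate its alpha subunit block that exchange under stress, while EIF4E-binding proteins block assembly at the cap when growth signals are low. Elongation then depends on EEF1A and its exchange factors and on EEF2, and cells that begin to grow are known to raise many of these factors, several of them as targets of MYC. The poly(A)-binding proteins join the mRNA tail to the scaffold at the cap.

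Values are log2 intensities, so a difference of 1 is a 2-fold change in intensity, and they compare a gene between days but not a gene with another gene. Array medians lay between 6.40 and 6.55. Granulosa markers fell in the same samples: 5 of 8 measured markers were lower on day 7, and their summed intensity was 9.71 to 9.95 (log2) on day 7 against 15.31 to 15.76 on day 0. Of 5 theca and stroma markers, 3 rose and 1 fell, and their sum was 14.46 to 14.59 on day 7 against 8.84 to 9.52 on day 0. Of 6 endothelial markers 1 rose and 1 fell, with sums of 8.16 to 8.42 on day 7 and 8.75 to 9.22 on day 0. Of 4 macrophage and leukocyte markers CD14 rose, with sums of 7.14 to 7.29 on day 7 and 6.38 to 6.72 on day 0, and the leukocyte gene PTPRC averaged 3.75 on day 7 and 3.77 on day 0. The 3 red cell genes changed by -0.63 to -0.03 on day 7, with adjusted p-values of 0.0575 or more. The signal of the 3′ probe set of actin exceeded that of its 5′ probe set by 0.19 to 0.59 on day 7 and by 0.18 to 1.01 on day 1, against 0.97 to 1.68 on day 0, and by 2.12 on replicate 2 of day 4. Some of these markers moved with the day and others did not, and the actin difference ran from 0.07 to 2.12 within day 4. The part of the markers and of the actin difference in the results was not tested. In bulk samples, fewer cells of a type and less RNA per cell cannot be told apart.

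Days 1, 2, 4 and 7 were each set against day 0, and day 7 against day 1, in 1 fit with limma over all 15 arrays. A gene was called changed at a Benjamini-Hochberg adjusted p under 0.05 over 23999 probe sets. On day 1, 18 of the 44 factors rose and 4 fell, a share of 50% called. In the same comparison 25.1% of all probe sets were called (13.6% higher and 11.4% lower) and 33.2% of single-symbol genes. The median change of the factors on day 1 was 0.39, against 0.038 for single-symbol genes. On day 2 the count was lower, with 10 factors up and 4 down (31.8%), at a background of 26% of probe sets (14.6% higher and 11.5% lower) and 33.7% of single-symbol genes. On day 4, 15 rose and 8 fell (52.3%), against 30.7% of probe sets (16.7% higher and 14% lower) and 38.1% of single-symbol genes. On day 7, 16 rose and 4 fell (45.5%), against 31.3% of probe sets (16.4% higher and 14.9% lower) and 38.8% of single-symbol genes. The median change was 0.28 against 0.028 for single-symbol genes. These 4 comparisons share the day 0 arrays. A test over all 4 changes from day 0 called 22 factors (50%), against 35.9% of probe sets and 46.5% of single-symbol genes.

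The 3 values of day 1 lay wholly above those of day 0 for 24 factors and wholly below for 6, where 20.7% and 16.3% of all probe sets did so. On day 7 the counts were 22 above and 9 below, where 23% and 23.5% of all probe sets did so, so the share above was larger than the background and the share below was not. Of the 6765 single-symbol genes, 1880 lay wholly above and 1245 wholly below on day 1, and 2137 and 1595 on day 7. Most changes were small. On day 1, 5 of the factors rose and 1 fell by at least 2-fold and past the test, against 6.47% and 6.03% of probe sets. On day 7, 5 did so and each was higher, against 9.36% of probe sets higher and 7.28% lower. Of the 6765 single-symbol genes, 601 rose and 468 fell by this rule on day 1, and 861 and 464 on day 7. The day 1 mean was the highest of the 5 days for 19 factors (43.2%), against 24.1% of single-symbol genes, and the day 0 mean was the lowest for 26 (59.1%), against 35.6%.

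**Figure D1:**
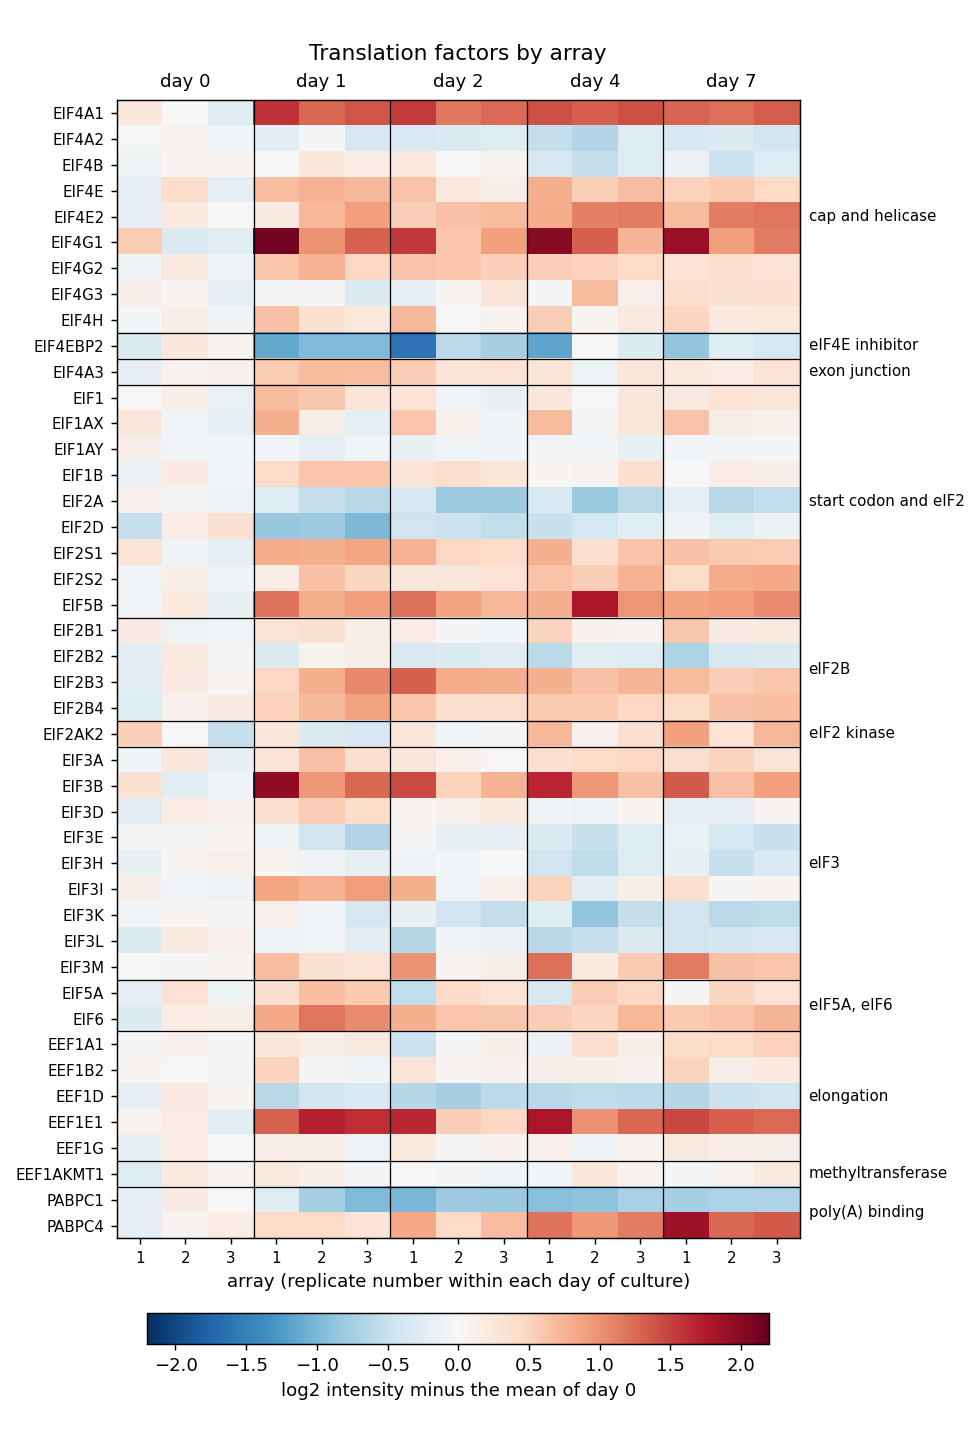
Log2 intensity minus the day 0 mean for the 44 translation factors (rows, grouped by role) on each of the 15 arrays (columns, by day and replicate number); red is higher and blue lower than day 0. The rows of EIF4A1, EIF4G1, EIF3B and EEF1E1 turn red on day 1 and stay so on day 7, while PABPC1 and EEF1D are blue from day 1 on.

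How many factors went each way depended on how the arrays were scaled. After a second quantile normalization, day 1 still had more factors up than down, 14 against 6, and after cyclic loess 13 against 7. Of the called factors 70% and 65% were then higher, where 49.4% and 47.3% of the called probe sets and 51.8% and 47.3% of the called single-symbol genes were. The median change of the factors on day 1 became 0.27 and 0.16, against 0.0044 and -0.015 for single-symbol genes. On day 2 the split became 6 up and 7 down after quantile normalization and 3 up and 12 down after cyclic loess. Of the called factors 46.2% and 20% were then higher, against 48.9% and 49.1% of called probe sets. The shares of called single-symbol genes were 51% and 48.3%. For day 4 the split became 10 up and 11 down, and 8 up and 11 down. There 47.6% and 42.1% of the called factors were higher, against 47.9% and 50.4% of called probe sets. Of called single-symbol genes 49.9% were higher under either scaling. On day 7 the split became 8 up and 10 down after quantile normalization and 8 up and 11 down after cyclic loess, and the median change on that day was 0.059 and 0.015. That is 44.4% and 42.1% of the called factors higher on day 7, close to the 46.6% and 49.9% of called probe sets, and the share of factors called was 40.9% and 43.2% against 40.1% and 39.6% of single-symbol genes. Shifting the arrays to a common median left 14 up and 7 down on day 7. Under all 4 scalings 13 factors rose and 4 fell on day 1, and 8 rose and 4 fell on day 7. The 8 were EIF4A1, EIF4G1, EIF4E, EIF4E2, EIF2B3, EIF5B, EEF1E1 and PABPC4, and the 4 were EEF1D, EIF3K, EIF4A2 and PABPC1. How many of all probe sets kept a call under all 4 scalings was not counted, so these counts have no background. The count on day 7 also moved with single arrays: 11 factors were called without replicate 3 of day 0, and 13 without replicate 1 or without replicate 3 of day 7. The share of all probe sets called on day 7 fell too, from 31.3% to 26.3%, 26.4% and 26% in these fits. On day 4, 15 factors were called without replicate 3 of day 0, where the share of all probe sets fell from 30.7% to 25.8%. Fitting the 6 arrays of the 2 days alone ended the day 1 calls of EEF1D, EIF1, EIF3A, EIF3D, EIF4E2 and PABPC1 (adjusted p = 0.0649 to 0.131) and the day 7 calls of EIF3A, EIF4A2, EIF4E and EIF4G2 (0.0605 to 0.111).

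**Figure D2:**
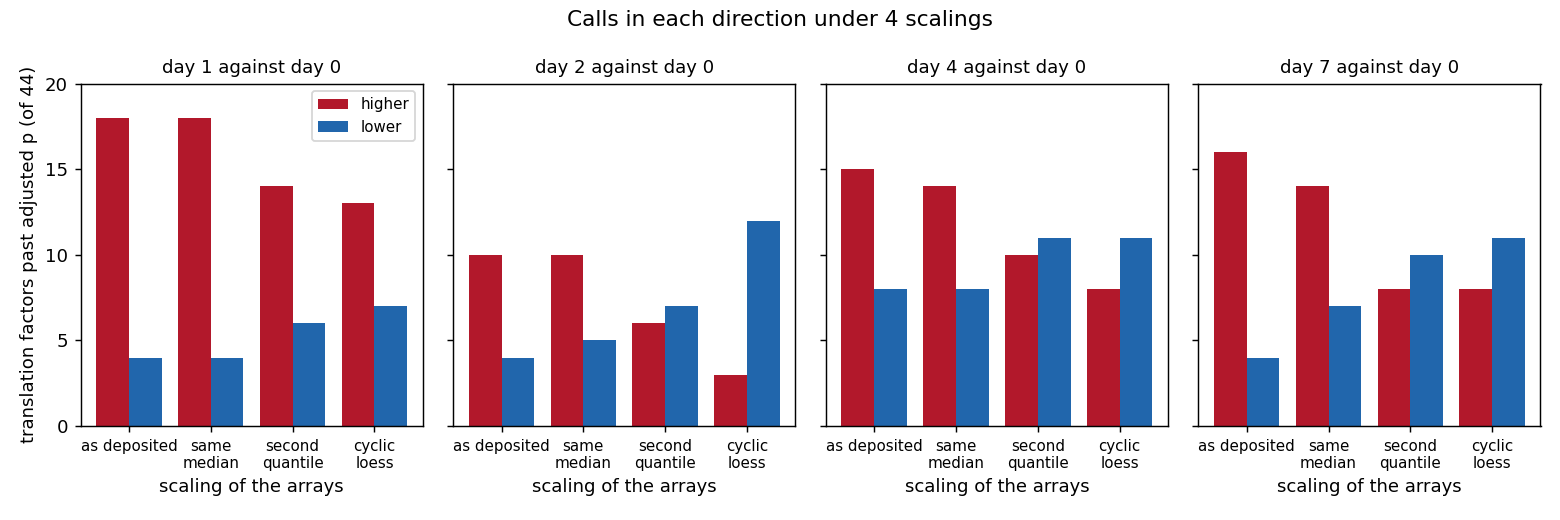
Number of the 44 translation factors called higher (red) or lower (blue) than day 0 on days 1, 2, 4 and 7, under the deposited values and 3 further scalings of the arrays. More factors were higher than lower on day 1 under each scaling (18 to 4 as deposited, 13 to 7 after cyclic loess), whereas on day 7 the split was 16 to 4 as deposited and 8 to 11 after cyclic loess.

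At the cap, 5 of 9 measured factors rose on day 1, while 5 rose and 1 fell on day 7. That is 55.6% and 66.7% called, against 33.2% and 38.8% of single-symbol genes. EIF4A1, the main helicase of the cap complex, had log2 intensities of 10.84, 10.60 and 10.32 on day 0, 12.18, 11.86 and 11.96 on day 1, and 12.13, 11.74 and 11.83 on day 2. EIF4A1 then had 12.01, 11.91 and 12.01 on day 4 and 11.87, 11.81 and 11.93 on day 7. Every cultured array lay above every day 0 array, and the level on day 7 was close to that on day 1. The change was 1.41 ± 0.15 (SE, 2.66-fold, limma adjusted p = 1.54e-05) on day 1 and 1.28 ± 0.15 (2.43-fold, adjusted p = 1.89e-05) on day 7. The direct comparison of day 7 with day 1 gave -0.13 ± 0.15 (adjusted p = 0.647).

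EIF4A2, the close paralog of EIF4A1, went the other way. Its values were 12.49, 12.57 and 12.43 on day 0, 12.27, 12.47 and 12.13 on day 1, and 12.16, 12.18 and 12.22 on day 2. It then had 11.98, 11.85 and 12.21 on day 4 and 12.14, 12.18 and 12.09 on day 7. The day 1 arrays overlapped those of day 0, and from day 2 on they lay below. The day 1 change of -0.21 (adjusted p = 0.286) was -0.48 after cyclic loess (0.0093). EIF4A2 fell by 0.48 ± 0.13 on day 4 (adjusted p = 0.00982) and by 0.36 ± 0.13 on day 7 (adjusted p = 0.0451), and on day 4 the 6 arrays of the 2 days alone gave an adjusted p of 0.0578. The call on day 7 was lost in 9 of the 15 fits that left out 1 array, those without any array of day 0 or day 7, replicate 2 or 3 of day 2 or replicate 1 of day 4 (adjusted p = 0.054 to 0.124). The change of EIF4A1 exceeded that of EIF4A2 by 1.62 on day 1 and 1.64 on day 7, and the difference of the paralogs did not overlap between the days. An exact two-sided permutation test of each gave p = 0.1, the smallest that 3 against 3 arrays allow.

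EIF4G1, the scaffold of the cap complex, had 10.08, 9.20 and 9.30 on day 0, 11.63, 10.52 and 10.82 on day 1, and 11.08, 10.14 and 10.43 on day 2. EIF4G1 then had 11.54, 10.84 and 10.29 on day 4 and 11.41, 10.45 and 10.68 on day 7. Replicate 1 was the highest array on each of the 5 days, and the 3 arrays of every cultured day lay above those of day 0. EIF4G1 rose by 1.46 ± 0.39 on day 1 (2.75-fold, adjusted p = 0.0132) and by 1.32 ± 0.39 on day 7 (2.49-fold, adjusted p = 0.0193). The day 2 change of 1.02 was not called (adjusted p = 0.0727), but was with the replicate number as a block (0.00023). The day 1 call ended without replicate 1 of day 1 (1.14, adjusted p = 0.0617), replicate 2 of day 0 (1.30, 0.0568) or replicate 3 of day 0 (1.35, 0.0509), and the day 7 call ended without replicate 1 of day 7 (1.03, 0.089) or without the same day 0 arrays (1.15 and 1.20, 0.0744 and 0.0682). A second, dimmer probe set changed by 1.27 on day 1 and 1.17 on day 7 (adjusted p = 0.549 and 0.533).

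EIF4E, the cap-binding protein itself, had 7.29, 7.89 and 7.27 on day 0, 8.17, 8.25 and 8.19 on day 1, and 8.11, 7.72 and 7.62 on day 2. EIF4E then had 8.28, 8.00 and 8.17 on day 4 and 7.99, 8.05 and 7.92 on day 7. Its arrays overlapped those of day 0 on day 2 and lay above them on the other days. It rose by 0.72 ± 0.18 on day 1 (1.65-fold, adjusted p = 0.00753) and by 0.50 ± 0.18 on day 7 (1.42-fold, adjusted p = 0.042). The day 7 call was lost in 9 of the 15 fits that left out 1 array, those without replicate 1 or 3 of day 0, replicate 2 or 3 of day 1, replicate 2 of day 2, replicate 3 of day 4 or any array of day 7 (adjusted p = 0.052 to 0.158).

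EIF4E2, a cap-binding relative of EIF4E that can repress mRNAs, had 8.60, 8.98 and 8.79 on day 0, 8.99, 9.52 and 9.71 on day 1, and 9.33, 9.44 and 9.50 on day 2. EIF4E2 then had 9.61, 9.91 and 9.93 on day 4 and 9.49, 9.93 and 9.97 on day 7. The cultured arrays lay above those of day 0, and the day means were highest on days 4 and 7. The rise was 0.61 ± 0.19 on day 1 (adjusted p = 0.0316) and 1.00 ± 0.19 on day 7 (2.01-fold, adjusted p = 0.00116). Day 7 arrays overlapped those of day 1, and the change of 0.39 ± 0.19 between them was not called (adjusted p = 0.2025). Its other 2 probe sets changed by 0.20 and -0.018 on day 7 (adjusted p = 0.364 and 0.959), and with the mean of its probe sets the day 7 change was 0.39 (adjusted p = 0.0544). The day 1 call ended without replicate 1 or 3 of day 0 or replicate 2 or 3 of day 1 (adjusted p = 0.0751 to 0.144). It also ended under quantile normalization (0.51, adjusted p = 0.11), cyclic loess (0.41, 0.182) and the mean of its probe sets (0.26, 0.24).

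EIF4G2, a scaffold that lacks the EIF4E-binding part, rose by 0.61 ± 0.12 on day 1 (1.53-fold, adjusted p = 0.00194). Its day means were 12.83 on day 0, 13.45 on day 1, 13.42 on day 2, 13.33 on day 4 and 13.17 on day 7, so day 1 was the highest. The change of 0.34 ± 0.12 on day 7 (adjusted p = 0.049) was -0.022 after cyclic loess and 0.12 after quantile normalization, and 12 of the 15 fits with 1 array left out lost the call (adjusted p of up to 0.159, without replicate 3 of day 0). EIF4B, which stimulates the helicase, fell by 0.40 ± 0.13 on day 4 (adjusted p = 0.0349), a call lost without replicate 2 or 3 of day 0 or replicate 1 or 2 of day 4 (adjusted p = 0.0652 to 0.119) and with the mean of its probe sets (0.11). Its day 7 change of -0.30 (adjusted p = 0.102) was -0.54 after quantile normalization and -0.56 after cyclic loess (0.00693 and 0.00307). The second probe set of EIF4B changed by -0.071 on day 7 (0.716). EIF4G3, a second scaffold, changed by -0.13 on day 1 and 0.36 on day 7 (adjusted p = 0.693 and 0.175). EIF4H, another stimulator of the helicase, could not be settled, since its brighter probe set changed by 0.31 on day 7 (adjusted p = 0.271) and its dimmer one by -1.50 (adjusted p = 0.00232).

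EIF4EBP2, which binds EIF4E and keeps it from the scaffold, had 9.81, 10.38 and 10.19 on day 0, 9.01, 9.15 and 9.16 on day 1, and 8.51, 9.54 and 9.40 on day 2. EIF4EBP2 then had 8.97, 10.12 and 9.83 on day 4 and 9.26, 9.87 and 9.75 on day 7. The arrays of days 1 and 2 lay below those of day 0, and those of days 4 and 7 overlapped them. EIF4EBP2 fell by 1.02 ± 0.31 on day 1 (adjusted p = 0.0254) and stood 0.50 ± 0.31 lower on day 7 (log2 change -0.50, adjusted p = 0.247). With the replicate number as a block the day 7 change was called (adjusted p = 0.0314), as was the rise of 0.52 between days 1 and 7 (0.0389, against 0.303 without the block). Of its 5 probe sets, another fell by 0.77 on day 1 (adjusted p = 0.0167), while 3 changed by -0.0090 to 0.11. The day 1 call ended without replicate 2 or 3 of day 0 or without any 1 array of day 1 (adjusted p = 0.0568 to 0.0954), and the mean of its 5 probe sets changed by -0.32 on day 1 (0.0998). On day 7 the probe set that fell by 0.77 on day 1 was also called lower (-0.60, adjusted p = 0.0478). The remaining 3 changed by -0.15 to 0.34 on day 7 (0.2 or more), and 1 of them rose by 0.54 on day 4 (0.0419).

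**Figure D3:**
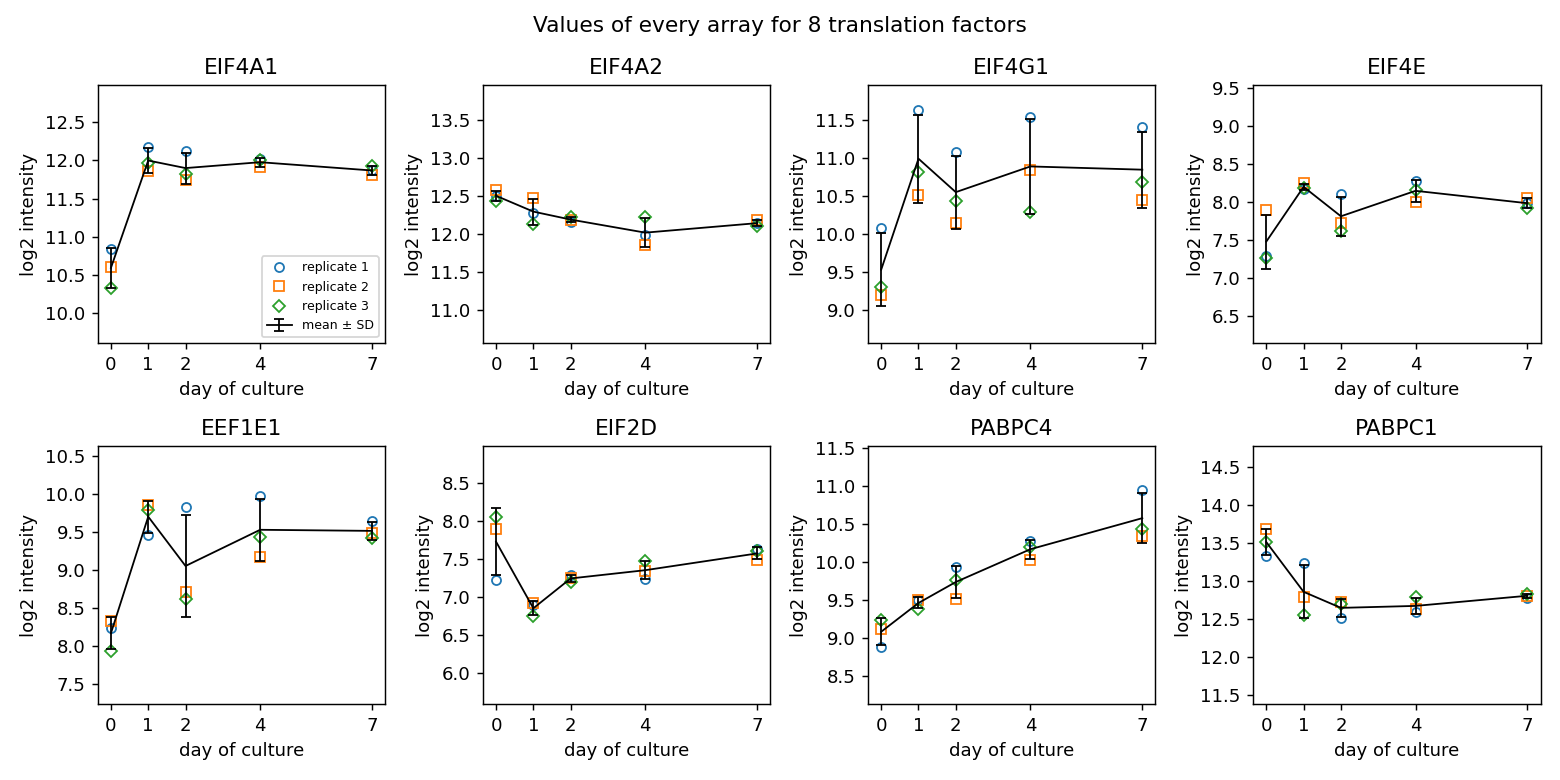
Log2 intensity by day of culture for 8 translation factors; open symbols are the 3 arrays of each day, and the black line joins the day means with bars of ± SD. EIF4A1 and EEF1E1 rise by day 1 and stay high, EIF2D dips on day 1, and PABPC4 climbs on each later day while PABPC1 lies lower from day 1 on.

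Among 9 factors that find the start codon or carry the initiator tRNA, 4 rose and 1 fell on day 1, and 3 rose on day 7. The share called was 55.6% on day 1 and 33.3% on day 7, against 33.2% and 38.8% of single-symbol genes. EIF2S1, the alpha subunit of EIF2 and the target of the stress kinases, had 11.34, 10.96 and 10.82 on day 0, 11.86, 11.82 and 11.92 on day 1, and 11.81, 11.50 and 11.46 on day 2. EIF2S1 then had 11.83, 11.39 and 11.67 on day 4 and 11.69, 11.62 and 11.61 on day 7. All cultured arrays lay above those of day 0. It rose by 0.83 ± 0.16 on day 1 (1.77-fold, adjusted p = 0.00153) and by 0.60 ± 0.16 on day 7 (1.51-fold, adjusted p = 0.0105), and the day 7 value was 0.35 (adjusted p = 0.0816) after quantile normalization, 0.31 (0.149) after cyclic loess and 0.48 (0.0539) without replicate 3 of day 0. EIF2S2, the beta subunit, changed by 0.43 ± 0.15 on day 1 (adjusted p = 0.0577) and rose by 0.69 ± 0.15 on day 7 (adjusted p = 0.00326). Its day 7 value was 0.45 (0.0818) after quantile normalization and 0.43 (0.0702) after cyclic loess.

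EIF5B, the GTPase that joins the large ribosomal subunit, had 7.77, 8.05 and 7.67 on day 0, 9.03, 8.64 and 8.76 on day 1, and 9.04, 8.71 and 8.56 on day 2. EIF5B then had 8.61, 9.61 and 8.80 on day 4 and 8.72, 8.75 and 8.86 on day 7. The highest array was replicate 2 of day 4, the array with the largest 3′ excess of actin. Its rise of 0.98 ± 0.23 on day 1 (1.97-fold, adjusted p = 0.00538) and 0.95 ± 0.23 on day 7 (1.93-fold, adjusted p = 0.0052) was called under each of the scalings and with any 1 array left out. A second probe set rose by 1.21 on day 1 and 1.85 on day 7 (adjusted p = 0.00318 and 8.31e-05), and the remaining, dim probe set changed by 0.34 and 0.29 (0.257 and 0.288).

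EIF2D, which can deliver initiator tRNA without EIF2 and takes part in ribosome recycling, had 7.23, 7.90 and 8.06 on day 0, 6.89, 6.93 and 6.75 on day 1, and 7.29, 7.26 and 7.20 on day 2. EIF2D then had 7.24, 7.35 and 7.48 on day 4 and 7.63, 7.49 and 7.61 on day 7. The day 1 arrays were the lowest of the course, and the day 7 arrays overlapped those of day 0 through replicate 1 of day 0. Without that array EIF2D was called lower on day 2 (-0.73, adjusted p = 0.000832), day 4 (-0.62, 0.00215) and day 7 (-0.40, 0.0268), against -0.15 on day 7 with all arrays. EIF2D fell by 0.88 ± 0.18 on day 1 (adjusted p = 0.00215), and day 7 was 0.72 ± 0.18 above day 1 (1.65-fold, adjusted p = 0.0108). EIF2A, a further noncanonical carrier of initiator tRNA, fell by 0.65 on day 2 (adjusted p = 0.0121) and by 0.58 on day 4 (adjusted p = 0.02). Every cultured array lay below day 0, but the changes of -0.47 on day 1 and -0.44 on day 7 were not called (0.0646 and 0.0687). Both were called after quantile normalization (-0.61 and -0.64, 0.00517 and 0.00289), after cyclic loess (-0.69 and -0.65, 0.00397 and 0.0043) and with the replicate number as a block (0.00736 and 0.00852). A dimmer probe set changed by -0.19 and -0.23 on those days (0.679 and 0.542). Without 1 array the call was lost on day 2 for replicate 2 or 3 of day 2 (adjusted p = 0.0512 and 0.053) and on day 4 for replicate 1 or 2 of day 0 or replicate 2 or 3 of day 4 (0.0542 to 0.0843).

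EIF1B, a paralog of the start codon fidelity factor EIF1, was highest on day 1, with 9.93, 10.22 and 10.00 on day 0, 10.47, 10.66 and 10.66 on day 1, and 10.36, 10.44 and 10.32 on day 2. EIF1B then had 10.09, 10.11 and 10.40 on day 4 and 10.06, 10.21 and 10.20 on day 7. The values of days 1 and 2 lay above those of day 0 and the later ones overlapped them. It rose by 0.55 ± 0.13 on day 1 (adjusted p = 0.00628), and after quantile normalization and cyclic loess that change was 0.43 and 0.32 (adjusted p = 0.0513 and 0.106). EIF1 itself rose by 0.53 on day 1 (adjusted p = 0.0216), which cyclic loess lowered to 0.25 (adjusted p = 0.147) and which was lost without replicate 3 of day 0, replicate 1 of day 1 or replicate 2 of day 1 (adjusted p = 0.0707 to 0.0858). EIF1AY averaged 2.97 on day 7 and 3.03 on day 0, under the lower quartile of every array (4.41 to 4.68), so its signal bears on no comparison.

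Of the 5 subunits of EIF2B, the exchange factor of EIF2, 4 were measured, and 2 of them rose on each cultured day. This 50% called stood against 33.2% to 38.8% of single-symbol genes on those days. EIF2B3, the gamma subunit, had 7.96, 8.38 and 8.26 on day 0, 8.66, 8.99 and 9.25 on day 1, and 9.51, 9.02 and 9.00 on day 2. EIF2B3 then had 8.98, 8.84 and 8.95 on day 4 and 8.89, 8.73 and 8.82 on day 7. EIF2B4, the delta subunit, had 8.88, 9.25 and 9.33 on day 0, 9.66, 9.86 and 10.04 on day 1, and 9.76, 9.53 and 9.54 on day 2. EIF2B4 then had 9.72, 9.72 and 9.61 on day 4 and 9.56, 9.79 and 9.82 on day 7. Neither overlapped day 0 on any cultured day. EIF2B3 rose by 0.77 ± 0.18 on day 1 (adjusted p = 0.00549), 0.98 ± 0.18 on day 2 (adjusted p = 0.000937) and 0.61 ± 0.18 on day 7 (adjusted p = 0.017), and EIF2B4 by 0.70 ± 0.15 on day 1 (adjusted p = 0.00316) and 0.57 ± 0.15 on day 7 (adjusted p = 0.00953).

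The alpha subunit EIF2B1 had 8.81, 8.52 and 8.56 on day 0, 8.94, 8.97 and 8.75 on day 1, and 8.79, 8.61 and 8.57 on day 2. EIF2B1 then had 9.12, 8.73 and 8.71 on day 4 and 9.22, 8.81 and 8.83 on day 7. The beta subunit EIF2B2 had 9.57, 10.01 and 9.83 on day 0, 9.48, 9.89 and 9.93 on day 1, and 9.47, 9.49 and 9.53 on day 2. EIF2B2 then had 9.22, 9.56 and 9.52 on day 4 and 9.10, 9.44 and 9.48 on day 7. The arrays of EIF2B1 overlapped between day 0 and every other day, and those of EIF2B2 lay below day 0 from day 2 on. Their changes on day 7 were 0.32 ± 0.16 for EIF2B1 (adjusted p = 0.145) and -0.46 ± 0.17 for EIF2B2 (adjusted p = 0.0505). With the replicate number as a block both were called (adjusted p = 0.0398 and 0.00663), and EIF2B2 also fell by 0.64 after quantile normalization and by 0.65 after cyclic loess (0.0143 and 0.0105). The day 7 call of EIF2B3 ended without replicate 1 of day 0 (0.49, adjusted p = 0.0682) or replicate 1 of day 7 (0.58, 0.0565), and that of EIF2B4 under quantile normalization (0.40, 0.0618) and cyclic loess (0.38, 0.0642). The day 2 and day 4 calls of EIF2B4 (0.46 and 0.53, adjusted p = 0.0375 and 0.0146) ended there too, with 0.30 and 0.34 after quantile normalization (0.184 and 0.112) and 0.23 and 0.30 after cyclic loess (0.294 and 0.146). The day 2 call was lost in 7 of the 15 fits with 1 array left out (adjusted p of up to 0.143, without replicate 1 of day 0), and the day 4 call without that array (0.0599).

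EIF2AK2, the kinase known as PKR that phosphorylates EIF2 alpha when it meets double-stranded RNA, had 9.36, 8.82 and 8.32 on day 0, 9.09, 8.53 and 8.46 on day 1, and 9.10, 8.77 and 8.80 on day 2. EIF2AK2 then had 9.57, 8.93 and 9.19 on day 4 and 9.74, 9.16 and 9.57 on day 7. Day 7 lay above day 1 on all 3 arrays but overlapped day 0. The changes were 0.65 ± 0.26 on day 7 against day 0 (adjusted p = 0.0775) and 0.80 ± 0.26 against day 1 (adjusted p = 0.0513), and with the replicate number as a block these adjusted p-values were 0.00668 and 0.00328.

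EIF3, the large scaffold that holds the small ribosomal subunit and the mRNA, did not move as a unit. Of 9 measured subunits 4 rose on day 1 (EIF3A, EIF3B, EIF3D and EIF3I), whereas 2 rose and 3 fell on day 4. On day 7 EIF3A, EIF3B and EIF3M rose and EIF3K fell. The shares called were 44.4%, 55.6% and 44.4% on days 1, 4 and 7, against 33.2%, 38.1% and 38.8% of single-symbol genes. EIF3B, a core subunit, had 8.98, 8.40 and 8.55 on day 0, 10.60, 9.59 and 9.90 on day 1, and 10.10, 9.14 and 9.41 on day 2. EIF3B then had 10.31, 9.59 and 9.29 on day 4 and 10.00, 9.29 and 9.55 on day 7. As with EIF4G1, replicate 1 was the highest array of each day, and no cultured array overlapped day 0. The rise was 1.38 ± 0.33 on day 1 (2.61-fold, adjusted p = 0.00668) and 0.97 ± 0.33 on day 7 (1.96-fold, adjusted p = 0.0386). The day 2 change of 0.91 was not called (adjusted p = 0.0596), but was with the replicate number as a block (0.000294). The day 7 call ended without replicate 2 or 3 of day 0 or replicate 1 or 3 of day 7 (adjusted p = 0.077 to 0.145), and under quantile normalization and cyclic loess (0.0512 and 0.0789).

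EIF3I, a small subunit bound to EIF3B, had 10.79, 10.59 and 10.56 on day 0, 11.51, 11.41 and 11.56 on day 1, and 11.43, 10.59 and 10.76 on day 2. EIF3I then had 11.13, 10.40 and 10.78 on day 4 and 11.01, 10.68 and 10.69 on day 7. The day 1 arrays stood above all of day 0 and the later days overlapped it. EIF3I rose by 0.84 ± 0.22 on day 1 (1.80-fold, adjusted p = 0.011) and was 0.70 ± 0.22 lower on day 7 than on day 1 (adjusted p = 0.0391). EIF3D, which can itself bind the cap of some mRNAs, had 10.74, 11.16 and 11.08 on day 0, 11.35, 11.53 and 11.40 on day 1, and 11.06, 11.10 and 11.19 on day 2. EIF3D then had 10.90, 10.88 and 11.04 on day 4 and 10.79, 10.80 and 11.04 on day 7. It followed the same course, with a rise of 0.43 ± 0.13 on day 1 (adjusted p = 0.0293), and was 0.55 ± 0.13 lower on day 7 than on day 1 (adjusted p = 0.0105, or 0.128 with the mean of its probe sets). Its day 1 call ended under quantile normalization and cyclic loess (adjusted p = 0.187 and 0.379) and without replicate 1 of day 0, replicate 2 of day 1 or replicate 3 of day 1 (0.0646 to 0.111). The other probe set of EIF3D, which enters the mean, had day means of 3.81 to 4.02. These lay under the lower quartile of every array (4.41 to 4.68), so the result with the mean bears little on the fall.

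EIF3K, a peripheral subunit, had 11.92, 12.02 and 12.01 on day 0, 12.10, 11.92 and 11.61 on day 1, and 11.81, 11.55 and 11.44 on day 2. EIF3K then had 11.71, 11.12 and 11.45 on day 4 and 11.58, 11.39 and 11.42 on day 7. From day 2 on its arrays lay below those of day 0. It fell by 0.56 ± 0.17 on day 4 (adjusted p = 0.0228) and by 0.52 ± 0.17 on day 7 (adjusted p = 0.0321). The day 4 call ended without replicate 2 or 3 of day 0 or of day 4 (adjusted p = 0.0535 to 0.102), and the day 7 call without replicate 2 or 3 of day 0 or of day 7 (0.0814 to 0.0977). EIF3L, its partner, fell by 0.48 on day 4 (adjusted p = 0.0434) and EIF3H by 0.42 (adjusted p = 0.0295). Both were lost without replicate 2 or 3 of day 0 (adjusted p = 0.0791 to 0.154), EIF3L in 10 and EIF3H in 4 of the 15 such fits. Under all 4 scalings both day 4 calls held. On day 7 EIF3L changed by -0.40 and EIF3H by -0.33 (adjusted p = 0.0851 and 0.08). Those day 7 changes were called after quantile normalization (-0.63 and -0.57, 0.019 and 0.00323) and cyclic loess (-0.68 and -0.60, 0.00929 and 0.00159).

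EIF3M had 10.62, 10.60 and 10.68 on day 0, 11.32, 10.97 and 10.96 on day 1, and 11.63, 10.68 and 10.77 on day 2. EIF3M then had 11.84, 10.84 and 11.20 on day 4 and 11.77, 11.28 and 11.25 on day 7, with replicate 1 the highest array of each cultured day. It rose by 0.80 ± 0.27 on day 7 (adjusted p = 0.0392), a call lost without any 1 array of day 0 or day 7 or replicate 3 of day 4 (adjusted p = 0.0509 to 0.15), and under quantile normalization and cyclic loess (0.0784 and 0.121). EIF3A, the largest subunit, rose by 0.44 on day 1 and 0.39 on day 7 (adjusted p = 0.0337 and 0.0479), which cyclic loess lowered to 0.18 and 0.10 (adjusted p = 0.365 and 0.612). Leaving out 1 array ended its day 1 call in 4 of 15 fits and its day 7 call in 11 (adjusted p of up to 0.146 and 0.169). EIF3E changed by -0.39 on day 1 and -0.35 on day 7 (adjusted p = 0.0828 and 0.103), but fell by 0.49 and 0.57 after quantile normalization (0.00548 and 0.00155) and by 0.65 on both days after cyclic loess (0.0012 and 0.000886).

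EIF6, which holds the large ribosomal subunit apart from the small one until it is needed and also acts in making that subunit, had 9.99, 10.46 and 10.43 on day 0, 11.12, 11.48 and 11.34 on day 1, and 11.08, 10.91 and 10.88 on day 2. EIF6 then had 10.83, 10.76 and 11.03 on day 4 and 10.87, 10.92 and 11.05 on day 7. Day 1 was the peak, and every cultured array lay above day 0. It rose by 1.02 ± 0.15 on day 1 (2.02-fold, adjusted p = 0.000232) and by 0.65 ± 0.15 on day 7 (1.57-fold, adjusted p = 0.00472). The day 7 change was 0.41 after quantile normalization and 0.39 after cyclic loess (adjusted p = 0.0652 and 0.0583).

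EIF5A, the hypusine-carrying factor that helps ribosomes through difficult peptide bonds, had 10.80, 11.34 and 10.91 on day 0, 11.38, 11.69 and 11.59 on day 1, and 10.48, 11.43 and 11.32 on day 2. EIF5A then had 10.66, 11.55 and 11.46 on day 4 and 11.05, 11.50 and 11.33 on day 7. Its arrays lay above day 0 on day 1 and overlapped it later, with changes of 0.54 ± 0.27 on day 1 (adjusted p = 0.193) and 0.28 ± 0.27 on day 7 (adjusted p = 0.497). Its second probe set rose by 1.52 on day 7 (adjusted p = 0.0137), so the direction on day 7 was shared and the size was not. The mean of its probe sets rose by 0.69 on day 1 and 0.90 on day 7 (adjusted p = 0.0348 and 0.00647). EIF4A3, a relative of the helicases that works in the exon junction complex and not at the cap, rose by 0.64 ± 0.14 on day 1 (1.56-fold, adjusted p = 0.0033) and was at 0.23 ± 0.14 on day 7 (adjusted p = 0.238).

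Of 5 elongation genes 1 rose and 1 fell on each cultured day. That is 40% called, near the 33.2% to 38.8% of single-symbol genes on those days. EEF1E1, named as an elongation factor but known as a scaffold protein of the multi-tRNA synthetase complex (AIMP3), had 8.24, 8.33 and 7.93 on day 0, 9.46, 9.85 and 9.78 on day 1, and 9.82, 8.71 and 8.62 on day 2. EEF1E1 then had 9.97, 9.17 and 9.44 on day 4 and 9.64, 9.48 and 9.41 on day 7. All cultured arrays lay above day 0, and replicate 1 stood over 1 unit above the other arrays on day 2. It rose by 1.53 ± 0.28 on day 1 (2.89-fold, adjusted p = 0.00111), the largest rise of the 44 genes on that day, and by 1.35 ± 0.28 on day 7 (2.54-fold, adjusted p = 0.00216). Its second probe set rose by 1.51 and 1.45 on those days (adjusted p = 0.00492 and 0.00513).

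EEF1D, a subunit of the exchange factor that recharges EEF1A, had 11.68, 12.07 and 11.94 on day 0, 11.29, 11.48 and 11.56 on day 1, and 11.27, 11.16 and 11.32 on day 2. EEF1D then had 11.28, 11.34 and 11.33 on day 4 and 11.26, 11.42 and 11.46 on day 7. Each cultured array lay below each day 0 array. EEF1D fell by 0.45 ± 0.13 on day 1 (adjusted p = 0.0201), by 0.65 ± 0.13 on day 2 (adjusted p = 0.00197) and by 0.51 ± 0.13 on day 7 (adjusted p = 0.00769). The day 1 call ended without replicate 2 of day 0 (-0.36, adjusted p = 0.0903), replicate 3 of day 0 (-0.43, 0.0624) or replicate 1 of day 1 (-0.37, 0.0779). The other exchange subunits EEF1B2 and EEF1G changed by 0.27 and 0.16 on day 7 (adjusted p = 0.206 and 0.386).

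EEF1A1, which brings charged tRNAs to the ribosome, had 9.51, 9.65 and 9.51 on day 0, 9.80, 9.69 and 9.74 on day 1, and 9.09, 9.53 and 9.68 on day 2. EEF1A1 then had 9.42, 9.93 and 9.69 on day 4 and 9.95, 9.97 and 10.07 on day 7. The day 7 arrays were the highest of the course. The changes were 0.19 ± 0.16 on day 1 (adjusted p = 0.475) and 0.44 ± 0.16 on day 7 (adjusted p = 0.0536, or 0.0292 with the replicate number as a block). Of its 2 other probe sets, the brighter changed by 0.51 on day 1 (adjusted p = 0.0804) and rose by 0.64 on day 7 (0.0237), while the dimmer rose by 0.94 on day 1 (0.0192) and changed by 0.45 on day 7 (0.233). With the mean of the 3 probe sets EEF1A1 rose by 0.55 on day 1, 0.42 on day 4 and 0.51 on day 7 (adjusted p = 0.0151, 0.0493 and 0.018), so whether it was called depended on the probe set. A control probe set of the array that is annotated to EEF1A1, and was left out of the main fit, lay at 14.01 to 14.54 on all arrays and changed by 0.25 on day 1 and 0.07 on day 7 (adjusted p = 0.167 and 0.706). EEF1A2, EEF2, the termination factors ETF1 and GSPT1, and the EIF4E inhibitor EIF4EBP1 had no probe set with a single symbol and were not analysed here.

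The poly(A)-binding proteins moved in opposite directions. PABPC1, the main cytoplasmic form, had 13.34, 13.69 and 13.52 on day 0, 13.24, 12.79 and 12.55 on day 1, and 12.51, 12.73 and 12.70 on day 2. PABPC1 then had 12.59, 12.63 and 12.80 on day 4 and 12.78, 12.81 and 12.83 on day 7. PABPC4, a related form also called inducible, had 8.89, 9.12 and 9.25 on day 0, 9.51, 9.51 and 9.38 on day 1, and 9.94, 9.52 and 9.77 on day 2. PABPC4 then had 10.28, 10.04 and 10.21 on day 4 and 10.96, 10.35 and 10.44 on day 7. PABPC1 lay below day 0 on every cultured array, and PABPC4 lay above it with day means that climbed at each step.

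PABPC1 fell by 0.65 ± 0.16 on day 1 (adjusted p = 0.00902, or 0.0662 with the 6 arrays of the 2 days alone) and by 0.71 ± 0.16 on day 7 (adjusted p = 0.00441). PABPC4 was 0.38 ± 0.17 higher on day 1 (log2 change 0.38, adjusted p = 0.135), and rose by 0.65 ± 0.17 on day 2 (adjusted p = 0.0111), 1.09 ± 0.17 on day 4 (adjusted p = 0.000242) and 1.49 ± 0.17 on day 7 (2.82-fold, adjusted p = 1.38e-05), the largest rise of the 44 genes on day 7. The change of PABPC4 exceeded that of PABPC1 by 1.03 on day 1 and 2.20 on day 7, again with p = 0.1 in the exact two-sided permutation test, the smallest possible.

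**Figure D4:**
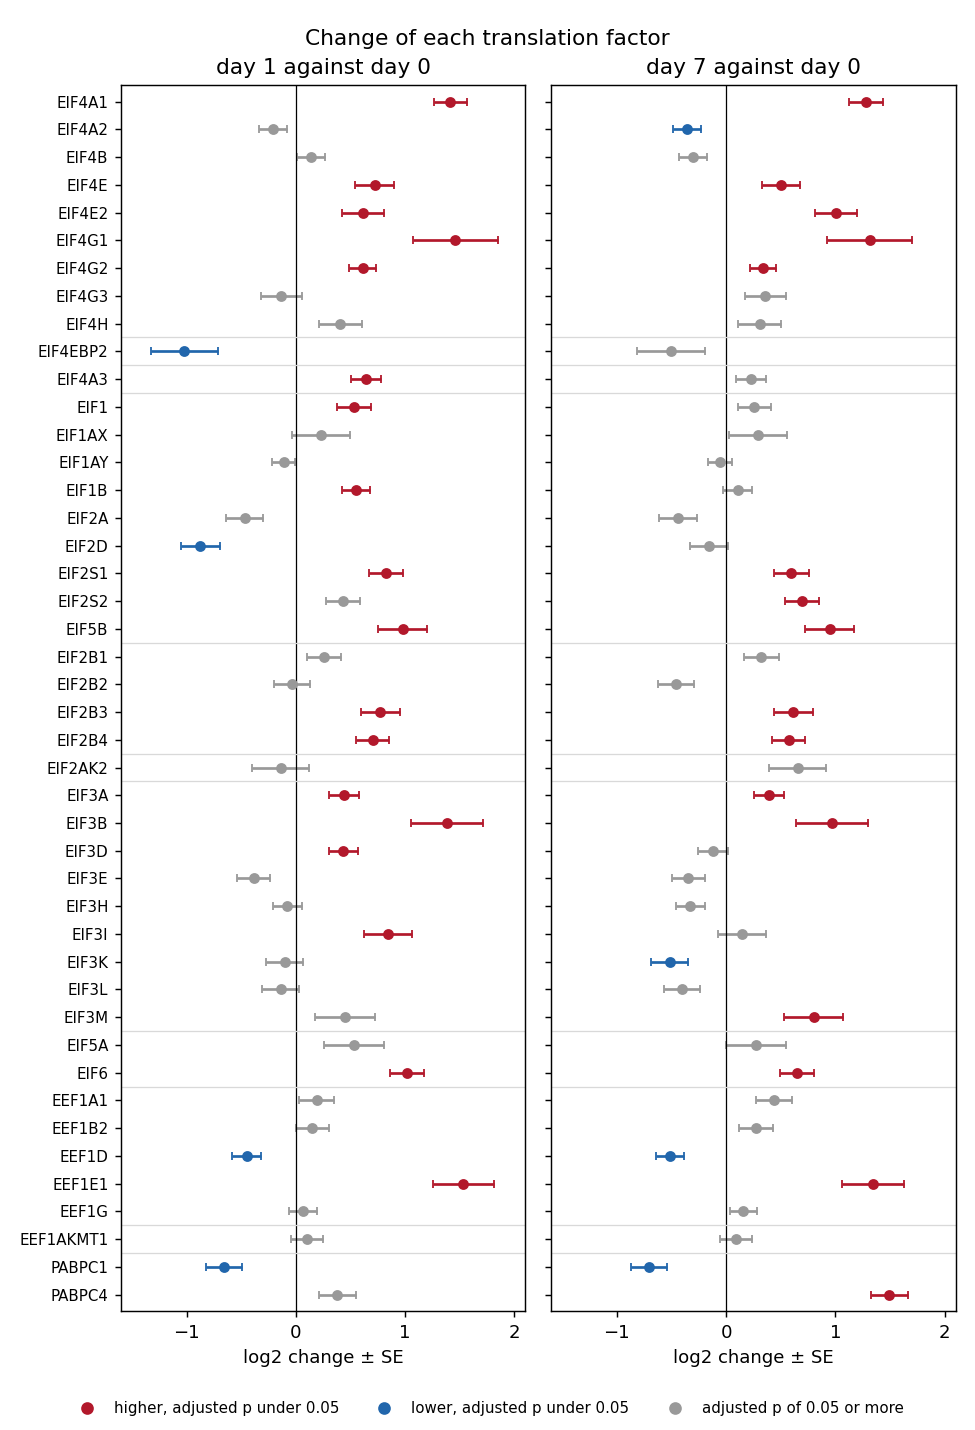
Log2 change of each of the 44 translation factors on day 1 (left) and day 7 (right) against day 0, with bars of ± SE from the limma fit; red and blue points passed an adjusted p of 0.05 as higher and lower, and grey points did not. EIF4A1, EIF4G1 and EEF1E1 lie beyond 1 in both panels, EIF2D and EIF4EBP2 are blue on day 1 only, and PABPC4 moves to 1.49 on day 7.

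Whether the response of day 1 was kept was tested by setting day 7 against day 1. Of the 44 factors, 2 were higher and 4 lower on day 7 (13.6%), against 18.9% of all probe sets (10.1% higher and 8.7% lower) and 25.9% of single-symbol genes. How this share compared with the background depended on the scaling. After a second quantile normalization 12 factors were called (27.3%), 2 higher and 10 lower, against 20% of probe sets and 27.8% of single-symbol genes. After cyclic loess 10 were called (22.7%), 3 higher and 7 lower, against 19.5% and 27.2%. With the deposited values EIF2D and PABPC4 were the higher ones, PABPC4 by 1.12 ± 0.17 (2.17-fold, adjusted p = 0.000419). The lower ones were EIF3D, EIF3I, EIF1B (-0.44 ± 0.13, adjusted p = 0.0287) and EIF4B (-0.44 ± 0.13, adjusted p = 0.0319), and each of the 6 was called under all 4 scalings of the arrays. EIF4B had 10.81, 10.97 and 10.99 on day 0, 10.93, 11.18 and 11.08 on day 1, and 11.15, 10.93 and 10.99 on day 2. EIF4B then had 10.56, 10.39 and 10.63 on day 4 and 10.79, 10.45 and 10.63 on day 7, and its second probe set changed by 0.16 between days 1 and 7 (adjusted p = 0.464).

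The median change between day 7 and day 1 was -0.12, against -0.025 for single-symbol genes. With the replicate number as a block 12 factors were called (27.3%), 5 higher and 7 lower, against 27.4% of probe sets and 34.3% of single-symbol genes. Without replicate 2 of day 1, replicate 3 of day 1 or replicate 3 of day 7 the count was 3 in each case. The share of all probe sets called was then 14.4%, 15% and 14.2%, against 18.9% with all arrays and no block. The calls lost with 1 array left out were those of EIF1B (adjusted p of up to 0.104), EIF3I (up to 0.122) and EIF4B (up to 0.141).

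Outside these families, 42 genes of translation control were listed and 22 measured. On day 1, 5 rose and 1 fell (27.3%), and on day 7, 5 rose and 4 fell (40.9%). These shares lay near the background of 25.1% of probe sets and 33.2% of single-symbol genes on day 1, and 31.3% and 38.8% on day 7. MYC, the growth-induced transcription factor, had 5.97, 6.39 and 6.66 on day 0, 10.06, 9.63 and 9.91 on day 1, and 9.81, 9.60 and 9.67 on day 2. MYC then had 9.55, 9.13 and 9.44 on day 4 and 9.40, 9.46 and 9.49 on day 7. It rose by 3.53 ± 0.18 on day 1 (11.5-fold, adjusted p = 3.18e-08) and by 3.11 ± 0.18 on day 7 (8.65-fold, adjusted p = 2.1e-08).

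ATF4, the transcription factor whose translation rises when EIF2 is phosphorylated, had 10.65, 10.66 and 10.80 on day 0, 12.81, 12.32 and 12.23 on day 1, and 11.90, 11.23 and 11.27 on day 2. ATF4 then had 11.64, 11.34 and 11.49 on day 4 and 11.70, 11.62 and 11.74 on day 7. Its mRNA peaked on day 1 and stayed above day 0 on every later array. It rose by 1.75 ± 0.19 on day 1 (3.37-fold, adjusted p = 1.69e-05) and by 0.98 ± 0.19 on day 7 (1.98-fold, adjusted p = 0.00122), and day 7 was 0.77 ± 0.19 below day 1 (adjusted p = 0.0114). DDIT3, a stress-induced target of ATF4, rose by 1.34 ± 0.26 on day 1 (2.53-fold, adjusted p = 0.00162), stood at 0.53 ± 0.26 on day 7 (adjusted p = 0.144), and was 0.81 ± 0.26 lower on day 7 than on day 1 (adjusted p = 0.0448).

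The phosphatase subunits that restore EIF2 went separate ways. PPP1R15A, the stress-induced form, changed by -0.22 on day 1 (adjusted p = 0.327) and fell by 2.03 ± 0.15 on day 7 (adjusted p = 1.68e-07), with 8.29, 8.22 and 8.39 on day 7 against 9.95, 10.50 and 10.52 on day 0. PPP1R15B, the constitutive form, rose by 0.91 ± 0.16 on day 1 (adjusted p = 0.000646) and 0.93 ± 0.16 on day 7 (adjusted p = 0.000371). ABCF1, an ATP-binding protein that associates with EIF2 and ribosomes, rose by 0.93 ± 0.14 on day 1 (adjusted p = 0.00031) and 1.04 ± 0.14 on day 7 (adjusted p = 7.84e-05).

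RHEB, the small GTPase that activates mTORC1, rose by 0.79 ± 0.18 on day 7 (adjusted p = 0.00385), and SESN1, an inhibitor of that pathway, fell by 1.36 ± 0.33 on day 1 (adjusted p = 0.00674) and by 1.02 ± 0.33 on day 7 (adjusted p = 0.0281). DHPS, the first enzyme of hypusine formation on EIF5A, fell by 1.13 ± 0.22 on day 7 (adjusted p = 0.00111), and IMPACT, an inhibitor of the amino acid-sensing EIF2 kinase GCN2, fell by 0.86 ± 0.29 (adjusted p = 0.0366). The split of these 22 genes on day 7 was 5 up and 7 down after quantile normalization and 5 up and 6 down after cyclic loess.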

How the data were processed

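Total RNA of 15 pig samples was measured on the Affymetrix porcine genome array. The deposited values are log2 intensities per probe set made by the authors with RMA, per the submitters' processing notes, with no version stated there. RMA equalises the arrays, so the values are relative to the bulk of each array, and probe sets far from the middle can shift with the scaling. Precision is limited by the 3 arrays of each day. Of 24123 probe sets, 124 controls were left out. Genes were named from the platform annotation: 10069 probe sets had 1 symbol, 198 several and 13732 none. Those without a single symbol were tested but not named.

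A model with day as a factor was fitted with limma 3.58.1 (R 4.3.3) over the 15 arrays, and calls used Benjamini-Hochberg adjusted p-values over 23999 probe sets. The fit was tested on simulated data. The 105 pairs of arrays held no identical pair. The gene families and lists were chosen with earlier results of these data known. Values of every array are given for a set list of factors and for the 5 largest rises and falls on day 1, on day 7 and between them whose arrays did not overlap. Of the other translation control genes, the 3 largest rises and falls on days 1 and 7 are given, with MYC and ATF4. Alternatives were other scalings, probe set choices, filters, array weights, a replicate block, a larger minimum change and leaving out arrays. The paralog test and the control probe set of EEF1A1 were chosen after seeing the data.

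Arrays with the same replicate number deviated together from their day means: the correlation over probe sets was 0.0609 to 0.333 between days 0 and 1, 0.115 to 0.124 between days 0 and 2, 0.165 to 0.384 between days 0 and 4, 0.214 to 0.384 between days 0 and 7, and 0.332 to 0.493 between days 1 and 7. No cut-off was set for these correlations, and those between unlike replicate numbers are not given here. Whether the replicate numbers pair the arrays was therefore not settled, and no label states it.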

Additional observations from a re-analysis of the deposited data

How the results depend on the processing

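Requiring a change of at least 1 left 6 of 22 calls for day 1, 1 of 14 for day 2, 7 of 23 for day 4, 5 of 20 for day 7, 1 of 6 between days 7 and 1, and 8 of 22 over the time course. Of all probe sets 12.5% passed that rule on day 1, 13.8% on day 2, 15.9% on day 4 and 16.6% on day 7. Between days 7 and 1 the share was 9.03%. Array weights raised the counts to 31 on day 7, 15 between days 7 and 1 and 36 over the course, although their estimation stopped before it converged, at weights of 0.199 to 13.1. The weights also raised the share of all probe sets called, from 31.3% to 45.1% on day 7 and from 18.9% to 36.1% between days 7 and 1. Between days 7 and 1 a second quantile normalization gave 12, cyclic loess 10, replicates 2 and 3 alone 11, and the fit with the replicate block 12. The shares of all probe sets called there were 20%, 19.5%, 29.7% and 27.4%. The block ended no call and moved no other count of factors by over 1.5 times, but it raised the counts on each day. With it 26 factors were called on day 1, 18 on day 2, 27 on day 4 and 27 on day 7. The share of all probe sets called rose from 25.1% to 33.1% on day 1 and from 26% to 34.6% on day 2. It rose from 30.7% to 39.5% on day 4 and from 31.3% to 40% on day 7. The 6 arrays of days 4 and 0 alone gave 13 on day 4, with 24.6% of all probe sets called against 30.7% in the main fit. Leaving out 1 array gave 16 to 23 factors at day 1, 10 to 15 at day 2, 15 to 24 at day 4, 11 to 23 at day 7, 3 to 8 between days 7 and 1, and 16 to 27 over the course. In those fits 19.9% to 27% of all probe sets were called at day 1, 21.8% to 27.1% at day 2 and 25.4% to 33% at day 4. At day 7 the share was 26% to 33.6%, and between days 7 and 1 it was 14% to 20.5%. Cyclic loess turned EIF1 on day 2 to -0.34 (adjusted p = 0.0462), EEF1G on day 4 to -0.33 (0.0218) and EIF4G2 on day 7 to -0.022 (0.912). The mean of all its probe sets gave EIF4H a change of -0.53 for day 2 (adjusted p = 0.0151), -0.60 for day 4 (0.0063) and -0.60 for day 7 (0.00619), because its probe sets differ in direction. For the other changes of a call or direction the cause was not tested. Apart from the minimum change, 13 of 22 calls on day 1, 5 of 14 on day 2, 8 of 23 on day 4, 6 of 20 on day 7 and 2 of 6 between days 7 and 1 passed under every alternative. EIF4A1 and EIF5B were among those on days 1 and 7. The matching shares of all probe sets were not counted. Dim probe sets limit what can be seen: that of EIF1AY lay under the lower quartile of every array.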
